A study of Mus musculus with 8 samples.

Results

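The 10 genes described here mark the cells of brain blood vessels. Cldn5, Pecam1, Flt1, Kdr, Slco1a4 and Abcb1a are expressed by endothelial cells, which line the vessel. Vtn, Rgs5, Pdgfrb and Myh11 are expressed by mural cells, the pericytes and smooth muscle cells that wrap it. Members were all array probes whose gene name equals 1 of these symbols, which gave 12 probes on 30 spots, among 39429 probes and 22897 gene symbols on the array. All 10 genes were among the 16358 tested. Expression was measured in snap-frozen cortex and hippocampus from Tet1 knockout (KO) mice and their wild-type (WT) counterparts, all labelled as 129 C57BL6 in background and naïve, meaning not put through any test before the tissue was taken. The 4 groups were WT cortex, KO cortex, WT hippocampus and KO hippocampus, with 2 samples each. No age, sex, Tet1 allele or Cre driver is given in the sources used here, and the deletion is labelled only as a knockout of the animal. Each WT sample was labelled with the dye Cy3 and shared a 2-colour array with a KO sample labelled with Cy5, so that 8 samples lay on 4 arrays of 1 slide. The dyes were never swapped, and a difference between genotypes and a difference between dyes therefore cannot be told apart within a tissue. Whether replicates are separate animals is not stated, so the p-values speak to the spread of these arrays alone.

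Endothelial cells of the brain form the blood-brain barrier. They seal the gaps between cells with tight junctions, pump foreign compounds back into the blood and respond to vascular endothelial growth factor (VEGF) through surface receptors. Pericytes sit on the capillary wall within its basement membrane, and smooth muscle cells ring the arterioles and carry a contractile apparatus. The Tet1 enzyme oxidises methylated cytosine in DNA, a mark found mostly where a C is followed by a G (CpG). These are bulk tissue samples, in which fewer cells of a type and less RNA per cell cannot be told apart.

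Of the member probes used, 9 were well above background in 8 of 8 samples, and Myh11 was so in 7. The share of all spots well above background was 49.7% to 51.7% in the WT channel and 66.6% to 67.2% in the KO channel, and the number of arrays limits the precision. Tet1 itself, measured with its brightest probe, had a log2 ratio of KO over WT of -0.19 ± 0.07 (SE, n = 2 arrays) in cortex and -0.17 ± 0.07 in hippocampus, with adjusted p-values of 0.223 and 0.232 in limma. Whether this probe lies in the deleted part is not stated, so it does not check the labels. Cortical marker genes were higher in cortex for 9 of 11 genes tested in WT, and hippocampal marker genes were lower there for 13 of 15, both by limma's adjusted p. WT hippocampus replicate 2 stood apart. The summed level of 15 choroid plexus markers was 281400 intensity units there and 6148 in WT hippocampus replicate 1. The summed level of 10 thalamic markers was 45101 against 14391, and that of 10 oligodendrocyte markers 373653 against 221065. Choroid plexus markers were uneven in cortex too, with sums of 102172 and 9009 in WT and 196646 and 120263 in KO, against 7391 and 22186 in KO hippocampus. Where a hippocampal count or list median moved clearly without hippocampus replicate 2, that value is given beside it.

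The probes of Vtn and Myh11, the genes on which the comparison of the tissues turns, read these transcript sequences, given 5′ to 3′. The Vtn probe lies on the plus strand of chr11:78315393-78315665 of the mm9 build; its 60 bases are spread over 273 genomic bases and so cross an intron. The Myh11 probe is 60 bases on the minus strand of chr16:14202190-14202249 of mm9.
Vtn probe: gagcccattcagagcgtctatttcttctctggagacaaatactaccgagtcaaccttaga
Myh11 probe: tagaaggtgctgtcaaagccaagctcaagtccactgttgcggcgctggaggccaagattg
Promoters were read from RefSeq (GRCm38.p6), whose table held 7 of the 10 members. Those of Cldn5 and Vtn are shown because Tet1 acts on CpG, Cldn5 was called across tissues and the tissue means of Vtn had opposite signs. The Vtn ratio was called in neither tissue. Each CpG is in capitals. The window is the 250 bases before the annotated start, at chr16:18776597-18776846 for Cldn5 and chr11:78498870-78499119 for Vtn, both on the plus strand.
Cldn5 promoter: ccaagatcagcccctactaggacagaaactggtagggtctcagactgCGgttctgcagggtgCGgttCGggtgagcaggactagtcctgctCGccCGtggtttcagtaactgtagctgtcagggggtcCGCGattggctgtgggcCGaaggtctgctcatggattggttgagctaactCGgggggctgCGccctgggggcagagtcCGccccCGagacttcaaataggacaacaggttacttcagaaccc
Vtn promoter: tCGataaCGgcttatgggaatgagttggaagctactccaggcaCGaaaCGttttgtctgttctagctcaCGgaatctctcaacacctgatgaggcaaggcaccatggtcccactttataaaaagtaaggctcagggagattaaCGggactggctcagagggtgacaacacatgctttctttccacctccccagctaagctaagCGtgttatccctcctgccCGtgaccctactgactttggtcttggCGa
The Cldn5 window held 12 CpG, a number reached by 33.5% of the 32851 promoters in the table, and the Vtn window held 9, reached by 40.3%. Flt1 held 23, Kdr 16 and Rgs5 4, while those of Abcb1a and Slco1a4 held 0, against a median of 6 over all promoters. CpG number thus differed widely among the endothelial members. DNA methylation was not measured here.

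Across both tissues, 2 of the 10 members differed between genotypes and both were lower in KO: Cldn5, the main sealing protein of endothelial tight junctions, and Myh11, the smooth muscle myosin heavy chain. A gene was called where its Benjamini-Hochberg adjusted p over all genes was under 0.05 in limma. In the mean of both tissues 11% of all genes were called, 7.18% higher and 3.86% lower in KO. Within cortex alone 0 of 10 members were called, where 0.0611% of all genes were, and within hippocampus 0 of 10, where 0.0183% were. At an unadjusted p under 0.05, limma found 2 of 10 members in cortex against 21.2% of all genes, 6 of 10 in hippocampus against 23.8%, and 5 of 10 in the mean against 33.9%. These counts, without hippocampus replicate 2, were 3 of 10 in hippocampus against 15.7% of all genes, and 4 of 10 in the mean against 29.2%. Log ratios were below 0 on all 4 arrays for 6 members, namely Cldn5, Pecam1, Flt1, Abcb1a, Rgs5 and Myh11, and for 17.7% of all genes. Both cortex arrays were below 0 for 8 members and 29.4% of all genes, and both hippocampus arrays for 7 members and 28.4%. The tissue means had opposite signs for 3 members, Vtn, Pdgfrb and Kdr, and for 23.1% of all genes, and both hippocampus arrays lay below both cortex arrays for 3 members, Vtn, Myh11 and Abcb1a, and for 16.2%. The adjusted p of both called members rose past 0.05 when any 1 of the 4 arrays was left out, to between 0.0728 and 0.133 for Cldn5 and between 0.0687 and 0.133 for Myh11, while their log ratios kept their sign.

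**Figure D1:**
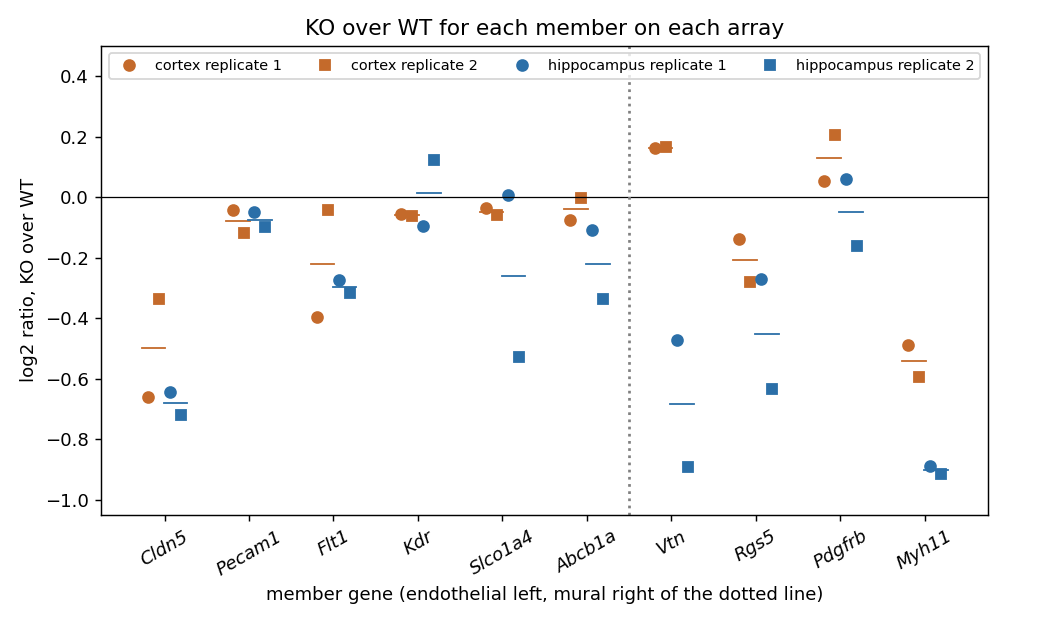
Log2 ratio of KO over WT (vertical axis) of each member gene (horizontal axis) on each of 4 arrays; colour gives the tissue, shape the replicate, and short lines the mean of 2 arrays. Cldn5 and Myh11 lie below 0 on all 4 arrays, Vtn lies above 0 on both cortex arrays and below 0 on both hippocampus arrays, and Pecam1 and Kdr lie near 0.

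Cldn5 stood at a normalised log2 level of 13.33 and 12.92 in the WT cortex samples and 12.67 and 12.58 in the KO cortex samples. In hippocampus it stood at 13.33 and 13.11 in WT and 12.68 and 12.39 in KO. The KO samples lay below the WT samples in both tissues with no overlap, and cortex and hippocampus of 1 genotype overlapped. The log2 ratio was -0.50 ± 0.23 (SD, n = 2) in cortex, with an adjusted p of 0.115 in limma, and -0.68 ± 0.05 (SD, n = 2) in hippocampus, with an adjusted p of 0.0782. In the mean of both tissues Cldn5 fell by 0.59 ± 0.07 (SE) on the log2 scale, a level 1.51-fold lower in KO (limma adjusted p = 0.0277). The difference between tissues was 0.18, with a 95% interval of -0.19 to 0.55. Cldn5 was represented by 1 probe on 1 spot, and its fall was 0.38 with median centring of each array in place of loess, where its adjusted p was 0.00494. Keeping every local background value, outlying ones included, ended the call (adjusted p = 0.114).

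Pecam1, the adhesion molecule CD31 found at contacts between endothelial cells, had log2 ratios of -0.04 and -0.12 in cortex and -0.05 and -0.10 in hippocampus. The 4 arrays agreed on a small negative value, and the mean of both tissues was -0.08 ± 0.05 (SE), with a limma adjusted p of 0.294 and a 95% interval of -0.20 to 0.04. Median centring in place of loess gave -0.48 for Pecam1 with an adjusted p of 9.3e-04, so whether this dim gene passes depends on the normalisation. That setting called 10222 genes in the mean of both tissues, 4610 higher and 5612 lower in KO, where loess called 1806, 1175 higher and 631 lower.

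Flt1 and Kdr encode VEGF receptors, of which Kdr carries most of the growth signal and Flt1 binds the ligand with higher affinity. Flt1 had log2 ratios of -0.40 and -0.04 in cortex and -0.28 and -0.32 in hippocampus. The cortex arrays disagreed and the hippocampus arrays agreed. The mean of both tissues was -0.26 ± 0.07 (SE), with a limma adjusted p of 0.0874, so Flt1 was not called. A second Flt1 probe was not well above background in any sample and gives no ratio.

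Kdr, read by its brighter probe, had log2 ratios of -0.06 and -0.06 in cortex and -0.10 and 0.12 in hippocampus. These scatter around 0, and the mean of both tissues was -0.02 ± 0.06 (SE; limma adjusted p = 0.795), with a 95% interval of -0.17 to 0.13. The dimmer Kdr probe, printed on 10 spots of which 8 or 9 were kept, gave -0.30 and 0.17 in cortex and -0.39 and -0.31 in hippocampus. Within an array its spots varied by an SD of 0.04 to 0.07, so on each of the 4 arrays the probes of Kdr disagreed by more than the spread of these spots.

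The transporters Slco1a4, which carries organic anions across the barrier, and Abcb1a, the efflux pump P-glycoprotein, were not called. Slco1a4 had log2 ratios of -0.04 and -0.06 in cortex and 0.01 and -0.53 in hippocampus. Its low hippocampal mean of -0.26 thus came from hippocampus replicate 2 and was 0.01 without it. Abcb1a had log2 ratios of -0.07 and -0.00 in cortex and -0.11 and -0.34 in hippocampus, and again the lowest value was on hippocampus replicate 2. The means of both tissues were -0.15 ± 0.10 (SE; limma adjusted p = 0.322) for Slco1a4 and -0.13 ± 0.06 (adjusted p = 0.194) for Abcb1a.

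**Figure D2:**
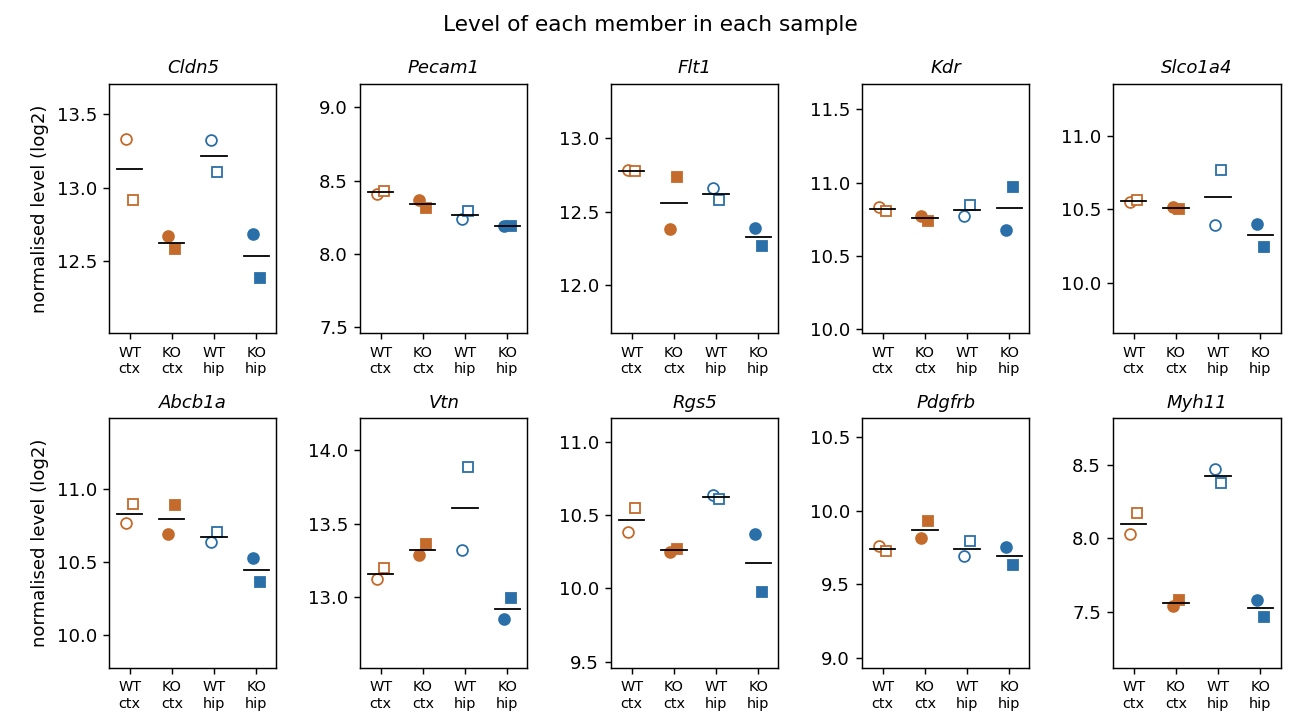
Normalised log2 level (vertical axis, 1 panel per gene, all panels spanning the same range) of each member in each sample; open symbols are WT, filled symbols KO, orange cortex (ctx), blue hippocampus (hip), circles replicate 1, squares replicate 2 and lines the mean of 2 samples. Cldn5 and Myh11 show WT above KO in both tissues without overlap, and Vtn shows WT above KO in hippocampus and KO above WT in cortex.

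Among mural members Myh11 stood at a log2 level of 8.03 and 8.18 in WT cortex and 7.54 and 7.58 in KO cortex. In hippocampus it stood at 8.47 and 8.38 in WT and 7.58 and 7.46 in KO. KO lay below WT in both tissues, and the KO samples of both tissues lay close together. The log2 ratio was -0.54 ± 0.08 (SD, n = 2) in cortex (limma adjusted p = 0.0893) and -0.90 ± 0.02 (SD, n = 2) in hippocampus (adjusted p = 0.0593). In the mean of both tissues Myh11 fell by 0.72 ± 0.05 (SE) on the log2 scale, 1.65-fold (limma adjusted p = 0.0163). The ratio was lower in hippocampus than in cortex by 0.36 ± 0.09 (SE), with an unadjusted p of 0.0137 and an adjusted p of 0.9999 in limma, so this difference was not called. Myh11 was dim in WT, with a raw signal of 384 to 457 where negative control spots had a median of 247 to 263, and was well above background in 1 of 2 WT cortex samples. Its size moved with the normalisation, to a log2 ratio of -1.28 with median centring, and with the background, to -0.46 with every background value kept, where the call ended (adjusted p = 0.114).

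Vtn encodes vitronectin, an adhesive matrix protein that pericytes secrete into the basement membrane. Its log2 level was 13.12 and 13.20 in WT cortex and 13.28 and 13.36 in KO cortex. In hippocampus it was 13.32 and 13.89 in WT and 12.85 and 12.99 in KO. KO thus lay above WT in cortex and below WT in hippocampus, with no overlap in either tissue. Genotype and dye cannot be told apart within a tissue, so neither sign is read as an effect of genotype alone. The log2 ratio was 0.16 ± 0.0017 (SD, n = 2) in cortex (limma adjusted p = 0.459) and -0.68 ± 0.30 (SD, n = 2) in hippocampus (adjusted p = 0.0867), and was not called in the mean of both tissues (-0.26 ± 0.08 SE, adjusted p = 0.105). The 95% interval in cortex was -0.14 to 0.47 and so spanned both signs. Over 16 alternatives the cortex ratio kept its sign, ran from 0.0049 to 0.374 and was called in 1.

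The difference between tissues was 0.85 ± 0.16 (SE) for Vtn, with a 95% interval of 0.42 to 1.28 and an unadjusted p of 0.00436. It ranked 66th of all genes by p and did not pass adjustment in limma (adjusted p = 0.9999), where 0% of all genes were called. At an unadjusted p under 0.05, limma found 2 members for this difference, Vtn and Myh11, against 4.52% of all genes. The probe was printed 10 times on each array. All 10 spots lay above 0 on both cortex arrays and below 0 on both hippocampus arrays, with an SD between spots of 0.03 to 0.04, so the reading of each array was precise and the spread lay between arrays. Without hippocampus replicate 2 the difference was 0.64 and the ratio in hippocampus -0.47. Both cortex arrays above 0 with both hippocampus arrays below 0 was seen for Vtn alone among the members and for 3.33% of all genes.

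Rgs5, a regulator of G protein signalling enriched in pericytes, had log2 ratios of -0.14 and -0.28 in cortex and -0.27 and -0.63 in hippocampus. All arrays gave lower levels in KO, and hippocampus replicate 2 gave the lowest. The mean of both tissues was -0.33 ± 0.08 (SE; limma adjusted p = 0.0631). It was called with median centring (limma adjusted p = 0.0222) and in a fit of all 8 samples with the array as a random block (adjusted p = 0.0332), and was not called in the fit reported here. In that mean those settings called 10222 and 3314 of 16358 genes, where the fit reported here called 1806. Rgs5 was called in 3 of 16 alternatives.

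Pdgfrb, the receptor through which endothelial platelet-derived growth factor recruits pericytes, had log2 ratios of 0.05 and 0.21 in cortex and 0.06 and -0.16 in hippocampus. It was the only mural member above 0 on 3 arrays, and its mean of both tissues was 0.04 ± 0.06 (SE; limma adjusted p = 0.676, 95% interval -0.12 to 0.20). The pericyte members Rgs5, Vtn and Pdgfrb thus did not share 1 direction in cortex.

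The mean log2 ratio of the 6 endothelial members was -0.21 and -0.10 in cortex, and -0.19 and -0.31 in hippocampus. That of the 4 mural members was -0.10 and -0.13 in cortex and -0.39 and -0.65 in hippocampus. Endothelial minus mural was -0.04 ± 0.09 (SD, n = 2) in cortex and 0.27 ± 0.10 in hippocampus. In cortex the classes were alike within the spread of arrays, and in hippocampus the mural mean was lower on both arrays. In hippocampus Vtn, Rgs5 and Myh11 lay below the endothelial mean of -0.25 and Pdgfrb lay near 0. The endothelial members Cldn5 (-0.68), Flt1 (-0.30) and Slco1a4 (-0.26) lay below that mean too, and Pecam1, Kdr and Abcb1a lay above it. The medians of the endothelial and mural members were -0.07 and -0.04 in cortex, and -0.24 and -0.57 in hippocampus. This comparison is a description without a test, and genes of a class are not replicates. Over all genes the median log2 ratio was 0.04 in cortex and 0.02 in hippocampus.

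Other genes of the vessel wall were counted by role. Of 28 further endothelial identity genes tested, 24 had a log ratio below 0 in hippocampus and 16 in cortex, where 45.6% and 41.6% of all genes did. The medians were -0.23 in hippocampus and -0.04 in cortex. Without hippocampus replicate 2 the hippocampal median was -0.14, with 21 of 28 below 0. In the mean of both tissues 2 of the 28 genes fell, where 3.86% of all genes were called lower. Lyl1, a transcription factor of blood and endothelial cells, fell by 0.27 ± 0.04 (SE; limma adjusted p = 0.0387). Vwf, which encodes the clotting protein von Willebrand factor, fell by 0.43 ± 0.08 (adjusted p = 0.0437), with log2 ratios of -0.09 and -0.02 in cortex and -0.61 and -0.99 in hippocampus. Erg, an endothelial transcription factor, was called higher, but it entered the test only through KO and was well above background in 0 WT samples, so neither its size nor its call is read here.

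Of 31 barrier junction and transport genes, 2 fell in the mean of both tissues, where 3.86% of all genes were called lower. This count is not read as a result about the list. Tfrc, the transferrin receptor that carries iron across the barrier, fell by 0.36 ± 0.05 (SE; limma adjusted p = 0.0340). Foxq1, a transcription factor of brain endothelium, fell by 0.47 ± 0.08 (adjusted p = 0.0418). Slc16a1, a carrier of lactate, was called higher, but like Erg it entered the test only through KO. It was well above background in 0 WT samples, so neither its size nor its call is read here. The list median was 0.03 in cortex and -0.14 in hippocampus, the latter -0.045 without hippocampus replicate 2.

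Of 21 genes of VEGF, angiopoietin and Notch signalling, 0 were called in limma in the mean of both tissues. The smallest p-values belonged to Dll4, an endothelial Notch ligand that was well above background in 0 WT samples and has no size here, the angiopoietin co-receptor Tie1 (-0.26 ± 0.07 SE, adjusted p = 0.0748) and the pericyte-derived ligand Angpt1 (0.27 ± 0.07, adjusted p = 0.0772). At an unadjusted p under 0.05 without hippocampus replicate 2, limma found 7 of these 21 genes, where it found 29.2% of all genes. Of 14 genes of the Wnt pathway that sets up the barrier, 1 fell, where 3.86% of all genes were called lower. This was Gpr124, an endothelial co-receptor for Wnt7 ligands, which fell by 0.36 ± 0.05 (limma adjusted p = 0.0346). The central effector Ctnnb1 (0.15 ± 0.04, adjusted p = 0.0902) and the ligand Wnt7a (-0.10 ± 0.05, adjusted p = 0.228) did not pass. Of 19 genes of platelet-derived and transforming growth factor signalling between the wall's cells, 1 fell, beside the same 3.86% of all genes. This was the endothelial receptor Acvrl1, which fell by 0.25 ± 0.05 (limma adjusted p = 0.0452). Its co-receptor Eng (-0.28 ± 0.06, adjusted p = 0.0613) and the ligand Hbegf (-0.19 ± 0.04, adjusted p = 0.0612) did not pass.

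Of 23 further pericyte genes, 19 had a log ratio above 0 in cortex, with a median of 0.17, and 10 in hippocampus, with a median of -0.03. In cortex 4 of the 23 lay below 0, where 41.6% of all genes did, and in hippocampus 13, where 45.6% did. Of the 23 genes, 17 were well above background in 8 of 8 samples. The other 6 were so in fewer, down to 4, and the count above 0 in cortex includes such dim genes. The hippocampal median was 0.025 without hippocampus replicate 2, with 11 of 23 below 0, so its sign rests on that array. In the mean of both tissues 1 rose, where 7.18% of all genes were called higher. This was the adhesion molecule Mcam, which rose by 0.36 ± 0.05 (SE, limma adjusted p = 0.0346). Foxc1, a transcription factor of mural and meningeal cells, had log2 ratios of 0.16 and 0.00 in cortex and -0.61 and -0.94 in hippocampus (mean adjusted p = 0.0548). Zic1, also on the list of thalamic markers, had -0.07 and 0.18 in cortex and -1.38 and -2.85 in hippocampus (mean adjusted p = 0.0675). Both were below 0 on both hippocampus arrays, as Vtn was, and neither was called. Of 20 matrix and matrix receptor genes that partner vitronectin, 0 were called in limma in the mean of both tissues. The laminin chain Lamb1 came nearest (0.30 ± 0.06 SE, adjusted p = 0.0502), followed by the proteoglycan Hspg2 (-0.39 ± 0.09, adjusted p = 0.0652) and the vascular laminin chain Lama4 (-0.30 ± 0.09, adjusted p = 0.105). Without hippocampus replicate 2, limma found 3 of the 20 at an unadjusted p under 0.05, against 29.2% of all genes, and the list median in hippocampus was 0.0048 in place of -0.17.

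Of 22 further smooth muscle contractile genes, 5 fell in the mean of both tissues and 0 rose, beside the fall of Myh11. Of all genes 3.86% were called lower and 7.18% higher. Of the 22 genes, 15 were well above background in 8 of 8 samples, and the other 7 in fewer, down to 2. Tagln, which binds actin in smooth muscle, had log2 ratios of -0.28 and -0.40 in cortex and -1.24 and -2.18 in hippocampus, a mean fall of 1.02 ± 0.16 (SE; limma adjusted p = 0.0369). Tpm2, a tropomyosin, had -0.22 and -0.42 in cortex and -0.79 and -1.42 in hippocampus (mean fall 0.71 ± 0.12, adjusted p = 0.0387). Crip1, a small zinc-binding protein, fell by 0.51 ± 0.07 (adjusted p = 0.0332). The others were Myl9 (-0.66, adjusted p = 0.0433) and Cnn1 (-0.51, adjusted p = 0.0474), a myosin light chain and calponin. For each of Tagln, Tpm2 and Crip1, as for Myh11, the ratio of KO over WT was lower on both hippocampus arrays than on both cortex arrays. The list median was 0.08 in cortex and -0.18 in hippocampus, with 9 of 22 genes below 0 in cortex, where 41.6% of all genes were, and 17 of 22 in hippocampus, where 45.6% were. The hippocampal median was -0.105 without hippocampus replicate 2, with 14 of 22 below 0. In the mean of both tissues the calls in the vascular lists did not hold without hippocampus replicate 2. The smooth muscle list median in that mean was then -0.047 in place of -0.088, where the median of all genes was 0.029. Only 12 of the 22 smooth muscle genes lay below 0, so the list did not share 1 direction.

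**Figure D3:**
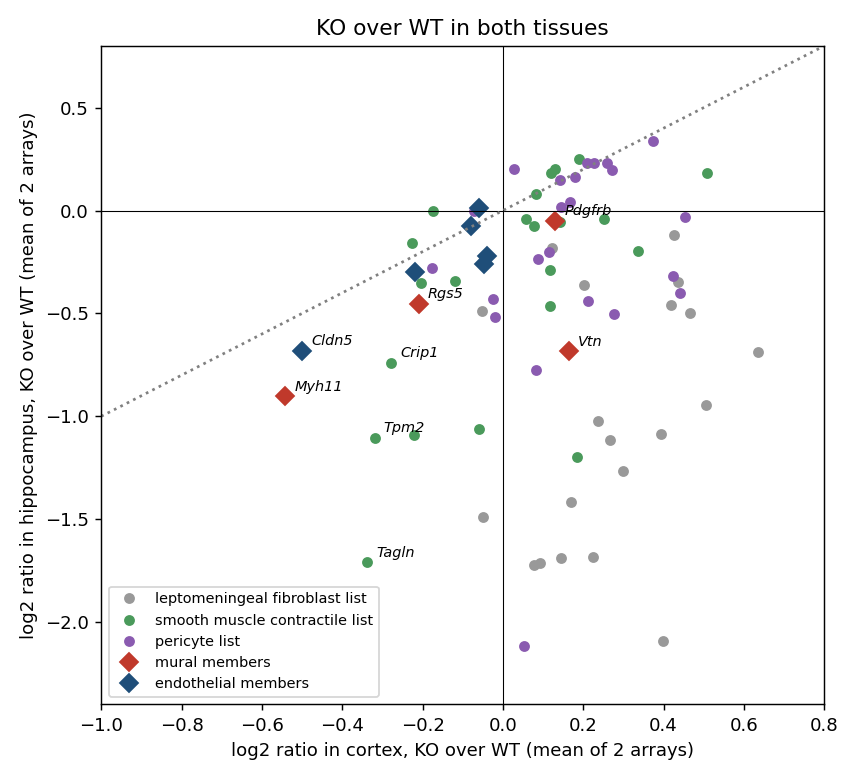
Log2 ratio of KO over WT in cortex (horizontal axis) against that in hippocampus (vertical axis), each the mean of 2 arrays, for members (diamonds) and for genes of 3 lists (circles); the dotted line marks equal ratios. Vtn lies with the leptomeningeal genes to the right of 0 and below it, at 0.16 and -0.68, whereas Myh11 and Cldn5 lie below 0 on both axes with Tagln, Tpm2 and Crip1.

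Markers of other cells moved in the same comparison. The 20 leptomeningeal fibroblast markers, genes of the membranes that cover the brain, had medians of 0.43 and 0.15 in cortex, and -0.65 and -1.41 in hippocampus. On each hippocampus array 19 of 20 were below 0, where 45.1% of all genes were on replicate 1 and 45.6% on replicate 2. Their summed level was 212241 and 288663 intensity units in WT hippocampus, 101544 and 120459 in KO hippocampus, 148488 and 167987 in WT cortex and 204553 and 182838 in KO cortex. The direction in each tissue was that of Vtn. In the mean of both tissues 7 of 20 were called lower, where 3.86% of all genes were. This mean averages opposite directions, with 18 of 20 above 0 in cortex and 20 of 20 below 0 in hippocampus. Without hippocampus replicate 2 the calls did not hold, and the list median in the mean was -0.23 in place of -0.37. Among the 7 was Slc13a4, a sulfate transporter, which fell by 0.85 ± 0.16 (SE, limma adjusted p = 0.0439). Fmod, a matrix proteoglycan, was the next farthest from 0 (-0.82 ± 0.21, adjusted p = 0.0736). Of these markers 16 of 20 were well above background in 8 of 8 samples. The 15 choroid plexus markers had medians of 0.55 and 2.07 in cortex and 0.11 and -2.77 in hippocampus. Thalamic markers had medians of -0.09, 0.05, -0.11 and -1.21 and oligodendrocyte markers -0.27, 0.06, 0.02 and -0.64 on the same arrays. Of the 10 thalamic markers 1 fell in the mean of both tissues, where 3.86% of all genes were called lower. In limma 0 of the choroid plexus or oligodendrocyte markers were called. The genes farthest from 0 in that mean were Kcnj13 (-0.80 ± 0.77 SE) and Ttr (0.63 ± 0.99) for choroid plexus, Zic1 (-1.03 ± 0.25) and Prkcd (-0.77 ± 0.40) for thalamus, and Mal (-0.44 ± 0.17) and Mbp (0.41 ± 0.12) for oligodendrocytes, none of them called. The choroid plexus, thalamic and oligodendrocyte medians were far below 0 only on hippocampus replicate 2. The leptomeningeal median was below 0 on both hippocampus arrays, and so were Vtn, Myh11 and Cldn5. The part of these markers in the results on Vtn, Myh11 and the smooth muscle genes was not tested.

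**Figure D4:**
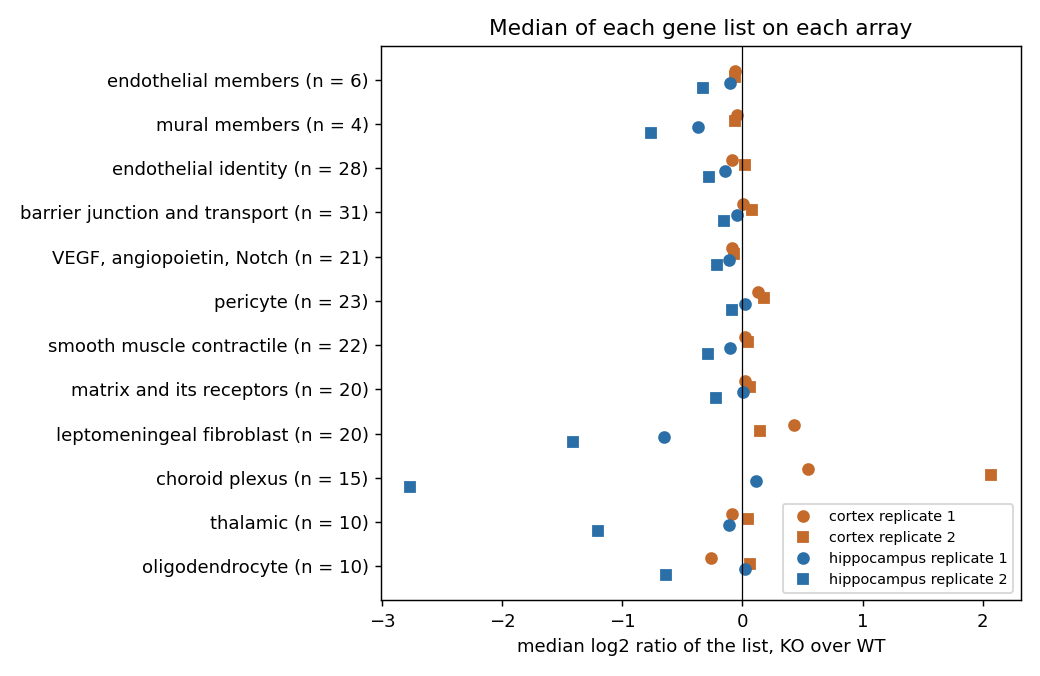
Median log2 ratio of KO over WT (horizontal axis) of the members and of 10 gene lists (rows, with the number of genes tested) on each of 4 arrays; colour gives the tissue and shape the replicate. The leptomeningeal median lies at -0.65 and -1.41 on the hippocampus arrays and above 0 on both cortex arrays, and the endothelial medians lie nearer 0 on all arrays.

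Markers of cells found in or beside vessels were also counted. Microglial markers had a median of -0.20 in cortex and -0.05 in hippocampus, and 3 of 16 fell and 1 rose in the mean of both tissues. Of all genes 3.86% were called lower and 7.18% higher in that mean. The microglial genes farthest from 0 were Fcrls (0.76 ± 0.04 SE, limma adjusted p = 0.0141) and the complement gene C1qa (-0.53 ± 0.05, adjusted p = 0.0247). Astrocyte markers, whose end-feet contact the vessel, had medians of -0.09 and -0.13, and 1 of 11 rose; farthest from 0 were Gfap (-0.78 ± 0.16 SE, limma adjusted p = 0.0506) and Gjb6 (-0.34 ± 0.07, adjusted p = 0.0565). Neuronal markers had medians of 0.13 and 0.07, with 0 of 9 called in limma and Snap25 (0.22 ± 0.12 SE) and Syt1 (0.21 ± 0.04) farthest from 0. Markers of red blood cells, which lie inside the vessels, had medians of 0.46 and 0.02, and 0 of 8 were called in limma. Hbb-b2 (0.50 ± 0.67 SE) and Hba-a2 (0.49 ± 0.19) were farthest from 0 in the mean of both tissues. Without hippocampus replicate 2 the hippocampal medians were 0.02 for microglial, 0.04 for astrocyte, -0.04 for neuronal and 0.35 for red cell markers, so the signs of the microglial, astrocyte and neuronal medians rest on that array.

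Cortex and hippocampus were also compared within each genotype, where both tissues carry the same dye. In WT 0 of 10 members were called in limma, where 9.03% of all genes were, and 1 member, Myh11, had an unadjusted p under 0.05 against 24.3% of all genes. In KO 1 of 10 was called, Vtn, where 16% of all genes were called and 8.79% were called higher in cortex. In KO the members with an unadjusted p under 0.05 were Vtn and Abcb1a, against 31.0% of all genes. Without overlap of samples, WT cortex lay above WT hippocampus for Pecam1, Flt1 and Abcb1a, where 24.7% of all genes did, and below it for Vtn, Rgs5 and Myh11, where 31.2% did. KO cortex lay above KO hippocampus for Pecam1, Slco1a4, Abcb1a, Vtn and Pdgfrb, where 28.9% of all genes did, and below it for 0 members, where 31.5% did.

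The log2 difference of cortex over hippocampus for Vtn was -0.45 ± 0.20 (SE; limma adjusted p = 0.257) in WT and 0.40 ± 0.08 (adjusted p = 0.0341) in KO. The sign was opposite in the genotypes, and the test of that difference, given above, did not pass. The WT value was -0.16 without hippocampus replicate 2 and -0.73 without hippocampus replicate 1. The KO call ended without cortex replicate 1 (adjusted p = 0.130), cortex replicate 2 (0.166) or hippocampus replicate 1 (0.0985). It also ended with the 8-sample fit (0.166), with every background value kept (0.0957), with processed signals (0.0531) and without a filter on dim probes (0.0521).

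For Myh11 the log2 difference of cortex over hippocampus was -0.33 ± 0.09 (SE; limma adjusted p = 0.118) in WT and 0.04 ± 0.08 in KO. Rgs5 had -0.16 ± 0.09 in WT and 0.09 ± 0.14 in KO, and Pdgfrb 0.00 ± 0.08 and 0.18 ± 0.08. In WT 3 of 4 mural members were below 0, and in KO 0 of 4 were. Among endothelial members Abcb1a was nearest to a call, higher in KO cortex by 0.34 ± 0.10 (adjusted p = 0.0940) and in WT cortex by 0.16 ± 0.09. For Flt1 the values were 0.16 ± 0.08 in WT and 0.24 ± 0.13 in KO, and for Pecam1 0.15 ± 0.08 and 0.15 ± 0.07. Cldn5, Kdr and Slco1a4 had values between -0.09 and 0.19. Of the 6 endothelial members 2 were below 0 in WT and 1 in KO, and none was called in either genotype.

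Other vascular genes showed larger tissue differences in WT, given as log2 of cortex over hippocampus with its SE and limma's adjusted p. Cd34, an endothelial surface mucin, had 0.59 ± 0.09 (adjusted p = 0.0270). The VEGF co-receptor Nrp1, which neurons also express, had -1.43 ± 0.09 (adjusted p = 0.00355), and the VEGF family ligand Pgf -0.71 ± 0.09 (adjusted p = 0.0149). Both were thus lower in cortex. The growth factor Tgfb2 had -2.12 ± 0.11 (adjusted p = 0.00247), the integrin chain Itga8 -1.58 ± 0.11 (adjusted p = 0.00382) and Lamb1 -1.07 ± 0.12 (adjusted p = 0.0109). Rgs4, of the same family as Rgs5 and also made by neurons, had 1.41 ± 0.11 (adjusted p = 0.00535), and Rgs2 0.75 ± 0.08 (adjusted p = 0.0110). These relatives of Rgs5 were higher in cortex, whereas Rgs5 itself was not called. Wnt7a had -0.50 ± 0.10 (adjusted p = 0.0472), and Itgb3, part of a vitronectin receptor, 0.60 ± 0.08 (adjusted p = 0.0184). Not called were Wnt7b (-0.47 ± 0.11), Egfl7 (-0.19 ± 0.09), Acvrl1 (0.34 ± 0.10), Zic1 (-1.34 ± 0.42), the amino acid transporter Slc7a5 (0.72 ± 0.15) and the junction protein Ocln (-0.78 ± 0.22), with adjusted p-values of 0.0693, 0.262, 0.134, 0.141, 0.0529 and 0.111.

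Genes whose levels followed those of the members most closely were found over the 8 samples after the mean of each dye was subtracted, among 12500 genes well above background in every sample. The samples share 4 arrays, so the correlation is given as a description. The genes named are the highest of 12500 over only 8 values, and how high r would run among unrelated genes was not tested. Each genotype has 1 dye, so the mean difference of KO and WT is removed as well. For the mean of the endothelial members these were Cdc42ep2, Pask, Mtus1, C030048H21Rik and Pigz, with Pearson r from 0.96 to 0.98. Pask had log2 ratios of KO over WT of 0.22 and 0.39 in cortex and 0.20 and 0.11 in hippocampus, opposite in sign to the endothelial mean. For the mean of the mural members these were Pdcd6ip, Plekhg2, Spa17, Tagln and Cd93, with r from 0.96 to 0.97. Of these, Tagln is on the smooth muscle list and Cd93 is a receptor of endothelial cells. Cd93 had log2 ratios of KO over WT of -0.28 and -0.25 in cortex and -0.45 and -0.61 in hippocampus.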

How the data were processed

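Signals of 8 samples, the 2 channels of 4 Agilent arrays, were analysed. The deposited scanner files hold intensity values per spot from Feature Extraction 10.1.1.1, with probe positions on mm9, per the file headers. The authors' deposited table of log2 values per channel, with scale and centring unstated, served as an alternative; the submitters' processing notes name limma. RNA input was 0.5 µg, per the labels' protocols. In limma 3.58.1 (R 4.3.3), background was corrected by normexp (offset 50), with outlying local backgrounds replaced by the array median, a step first adopted after gene counts from these data had been seen. Loess (span 0.3, 1377 control spots of 44397 at weight 0) followed. Spots of a probe were averaged, the brightest probe stood for a gene, and a gene needed to be well above background on both arrays of 1 group. The 4 log ratios were fitted by lmFit and eBayes with 1 mean per tissue (2 residual and 2.62 prior degrees of freedom). Tissues were compared within each dye after Aquantile, 4 samples per fit. With 2 against 2 an exact permutation test could not go below 0.333. WT and KO of 1 number and tissue share an array, and their deviations from group means correlated at r = 0.34 in cortex and 0.19 in hippocampus. Summed levels are sums of normalised levels off the log scale.

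Members and gene lists were chosen with earlier results of these data known. Named from each other vascular list were the 3 genes with the smallest p in the mean of both tissues and the 2 with the smallest p between tissues in WT; from marker lists, the 2 farthest from 0 in that mean (left out here for the lists that only check the tissue); and the 5 genes most like each class by Pearson r. Myl9 and Cnn1 were named after their values were seen. Alternatives covered background, normalisation, probe choice, filters, blocks and each array left out.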

Additional observations from a re-analysis of the deposited data

Results flagged for a closer look

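The ratio of KO over WT of Vtn differed between tissues by 0.85 on the log2 scale, with both cortex arrays above 0 and both hippocampus arrays below 0. The ratio itself was called in neither tissue. The test of the difference gave an unadjusted p of 0.00436 and an adjusted p of 0.9999 in limma, so the difference did not pass over all genes. Groups here have 2 samples, too few for a check of single outlying samples.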

How the results depend on the processing

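The fall of Cldn5 and Myh11 in the mean of both tissues kept its sign under each alternative run, from -0.67 to -0.38 for Cldn5 and from -1.28 to -0.46 for Myh11. The call held in 10 of 16 alternatives for Cldn5 and 9 of 15 for Myh11. It ended with each array left out, with every background value kept and with a trended, robust prior (adjusted p = 0.0756 for both). Myh11 has no value under the strict filter. The difference of Vtn between tissues ran from 0.64 to 1.06 and was called in none. Myh11 was dim in WT, which limits its value.

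Counts of called genes moved more. In cortex 10 genes were called, against 0 with every background value kept, 0 with offset 16, 0 with the trended prior, 130 with processed signals, 7141 with median centring, 22 in the authors' deposited table, 38 with the mean of probes, 27 with no filter, 18 with the strict filter and 668 with the array as a random block. In hippocampus 3 were called, and these settings gave 7, 0, 0, 356, 8118, 16, 2, 10, 14 and 1014. In the mean of both tissues 1806 were called, against 3 with every background value kept, 1136 with processed signals, 10222 with median centring, 3243 with no filter (1708 higher, 1535 lower), 999 with the strict filter (546 higher, 453 lower), 0 with the trended prior and 3314 with the random block. With an array left out, 0 to 0 were called in cortex, 0 to 1 in hippocampus and 0 to 1 in the mean; in cortex 1333 to 4053 genes then had an unadjusted p under 0.05 in limma. Between tissues in WT 1477 were called, against 964 with processed signals, 2484 with the random block and 316 to 1033 with a sample pair left out. In KO 2623 were called, against 826 to 2117. Endothelial minus mural in cortex was -0.159 with every background value kept and 0.0878 with median centring; in hippocampus it was 0.38 with processed signals and 0.371 with median centring. Before median centring, the median log ratio of tested genes was 0.92 to 1.06.

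Across tissues the samples share only a number: deviations of log ratios with the same number correlated at r = 0.16. With the replicate block as a term, 86 genes were called in cortex, 394 in hippocampus and 2321 in the mean of both tissues. Rgs5 in that mean (limma adjusted p = 0.0353) and Myh11 in hippocampus (adjusted p = 0.0347) then passed. With no replicate block, 8 samples fitted without the array, 276 and 430 genes were called.

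Values near 0 changed sign. With every background value kept, the mean of both tissues was -0.0209 for Pdgfrb, and the difference between tissues 0.033 for Pecam1 and -0.101 for Flt1. With processed signals Kdr in hippocampus was -0.0412, the difference of Pecam1 0.0122 and Slco1a4 between tissues in WT 0.033. With median centring, cortex was 0.0035 for Kdr and 0.0259 for Abcb1a, the mean 0.0484 for Kdr and -0.0136 for Pdgfrb, and the difference 0.0226 for Pecam1. In the authors' deposited table the mean of Kdr was 0.0034 and the difference of Pecam1 0.0102. With the mean of probes Kdr was -0.17 in hippocampus, 0.107 in the difference and -0.118 between tissues in WT, where it was -0.0059 with no between-array normalisation.

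With 1 array left out, signs changed within these ranges. In hippocampus they were -0.097 to 0.124 for Kdr, -0.529 to 0.007 for Slco1a4 and -0.162 to 0.0616 for Pdgfrb, and in the mean -0.0785 to 0.0318 for Kdr and -0.0157 to 0.096 for Pdgfrb. In the difference they were -0.0454 to 0.0331 for Pecam1, -0.101 to 0.256 for Flt1, -0.184 to 0.037 for Kdr and -0.0549 to 0.481 for Slco1a4. Between tissues in WT they were -0.298 to 0.116 for Cldn5, -0.0316 to 0.0434 for Kdr, -0.216 to 0.162 for Slco1a4 and -0.0506 to 0.051 for Pdgfrb. Between tissues in KO they were -0.0568 to 0.239 for Cldn5, -0.215 to 0.0804 for Kdr, -0.109 to 0.281 for Rgs5 and -0.0238 to 0.0958 for Myh11. The cause of these moves was not tested.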

Other observations

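Over the 8 samples, after the mean of each dye was subtracted, Pdgfrb levels followed the mean of the endothelial members with r = 0.92 and the mean of the other mural members with r = 0.52. Cldn5 followed the mean of the other endothelial members with r = -0.10 and Kdr with r = -0.60. These are descriptions over samples that share 4 arrays, with the mean difference of KO and WT removed.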
